A study of Homo sapiens with 6 samples.

Results

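The mitochondrial respiratory chain genes were described in RNA sequencing of cells labelled HepG2, a human hepatoma cell line. ARHGEF2, a guanine nucleotide exchange factor that activates RhoA, had been knocked down in part of them with a lentiviral short hairpin RNA. The 6 libraries were 3 from control cells (shNC, genotype labelled WT) and 3 from knockdown cells (shARHGEF2, genotype labelled ARHGEF2 knockdown). All were grown in DMEM with serum, and the labels name no further treatment. The labels do not say whether the libraries of a group came from separate cultures or whether the 3 shARHGEF2 libraries carried 1 hairpin sequence, so the p-values below measure the spread between these libraries only, which may be technical. The genes were chosen by name: NDUFA, NDUFB, NDUFC, NDUFS and NDUFV followed by a number, SDHA to SDHD, UQCR, CYC1, COX4 to COX8, ATP5, and MT-ND, MT-CO, MT-CYB and MT-ATP. Of 27605 genes in the table, 102 were taken, and 36 names ending in P and a number, taken as pseudogenes, were left out. MT-ATP6 and MT-ATP8 end that way too and were kept as genes. The 102 comprised 13 subunits encoded on the mitochondrial genome (the MT members), 83 nuclear genes of subunits and 6 other nuclear names: ATP5IF1, the inhibitor of the ATP synthase, the readthrough genes NDUFC2-KCTD14 and ATP5MF-PTCD1, and the long noncoding RNAs NDUFA6-DT, NDUFB2-AS1 and NDUFV2-AS1. No gene in the table was named COX4I2 or COX6A2, so these were not analysed here.

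The respiratory chain sits in the inner mitochondrial membrane. Complex I takes electrons from NADH and complex II from succinate; both pass them through ubiquinone to complex III, and cytochrome c carries them on to complex IV, which reduces oxygen. Complexes I, III and IV pump protons, and the ATP synthase, complex V, uses the resulting gradient to make ATP. Complex II is built from nuclear genes alone, whereas the other complexes join nuclear subunits, translated in the cytosol and imported, with subunits made from long polycistronic RNAs inside the mitochondrion. Liver cells depend heavily on this system, and hepatoma lines in glucose-rich medium also use glycolysis.

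The targeted gene followed the labels. ARHGEF2 was at 13.0, 14.4 and 13.9 FPKM (fragments per kilobase of transcript, scaled to library size) in shNC and at 4.25, 4.004 and 4.82 FPKM in shARHGEF2, a log2 fold change of -1.47 ± 0.11 (SE) with adjusted p = 0.00244 in limma. The table holds FPKM and no read counts, and the spacing of low values gave an estimated 20055000 to 23275000 read pairs per library. Of 18 hepatocyte markers, 10 were in the table and VTN alone averaged at least 1 FPKM. The table held no ALB, AHSG, APOB, APOH, FGB, FOXA2, TF or TTR. The 10 markers present summed to 6.02 to 6.24 FPKM in shNC and 6.70 to 7.70 FPKM in shARHGEF2. HepG2 is the identity given by the labels, and this marker list does not bear out a hepatocyte character. The identity of the cells was not tested. Of 5 epithelial markers, all in the table, the keratins KRT8, KRT18 and KRT19 averaged at least 1 FPKM, and EPCAM and CDH1 did not. The epithelial list summed to 354 to 458 FPKM in shNC and 335 to 419.5 FPKM in shARHGEF2. Of the fibroblast markers, 4 of 6 (COL1A1, COL3A1, DCN and LUM) were above 1 FPKM on average, with sums of 39.8 to 52.7 FPKM in shNC and 38.7 to 45.6 FPKM in shARHGEF2. No endothelial marker averaged 1 FPKM (4 of 5 in the table, sums of 0.597 to 0.648 FPKM in shNC and 0.801 to 0.872 FPKM in shARHGEF2), and of the leukocyte list (5 of 6 in the table, sums of 60.6 to 88.0 FPKM and 75.3 to 85.7 FPKM) CD68 alone did. The hepatocyte and endothelial sums did not overlap between the groups, and the part of these markers in the results below was not tested. A gene was tested when its mean over the 6 libraries was at least 0.5 FPKM, on log2(FPKM + 1), and called at an adjusted p under 0.05 over all 12291 genes tested. A fold change on this scale understates the change of a gene with a low level. Differences are given as shARHGEF2 minus shNC throughout, and in these bulk samples fewer expressing cells and less RNA per cell cannot be told apart.

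No respiratory chain gene was called between shARHGEF2 and shNC. In limma 0 of 97 tested members passed, beside 34 of 12291 genes over the whole table (0.277%), and the smallest adjusted p-values of members were 0.0993 for COX6B2, which reached the level for testing only through its shARHGEF2 libraries, and 0.104 for NDUFA3. When at least 1 FPKM in 3 libraries was asked for, COX6B2 was not tested and NDUFA3 had the smallest adjusted p, 0.0878. At an unadjusted p under 0.05 there were 16 members, of which 14 had lower and 2 (COX6B2 and SDHA) higher values in shARHGEF2. Among all genes tested, 5.55% had an unadjusted p under 0.05 with lower values and 8.1% with higher values, against 14.4% and 2.06% of the members. The fitted change was below 0 for 75 of the 97 members (77.3%), against 50.4% of all genes tested, and the median log2 change of the members was -0.10 against -0.0016 over all genes. For 17 members the groups were apart with the knockdown libraries lower, and for 2 members with the knockdown libraries higher (17.5% and 2.06%, against 9.17% and 11.3% of all genes). For each of those 19 genes the two-sided exact permutation test on mean FPKM gave p = 0.1, the smallest value that 3 libraries against 3 allow. Any gene whose groups do not overlap must get this value, so it adds nothing to that count. For 95 of the 97 members the 95% interval of the change in log2(FPKM + 1) lay within 1 unit on either side of 0. This does not bound the FPKM ratio of a gene at a low level, such as COX6B2, whose ratio of means was 2.98.

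**Figure D1:**
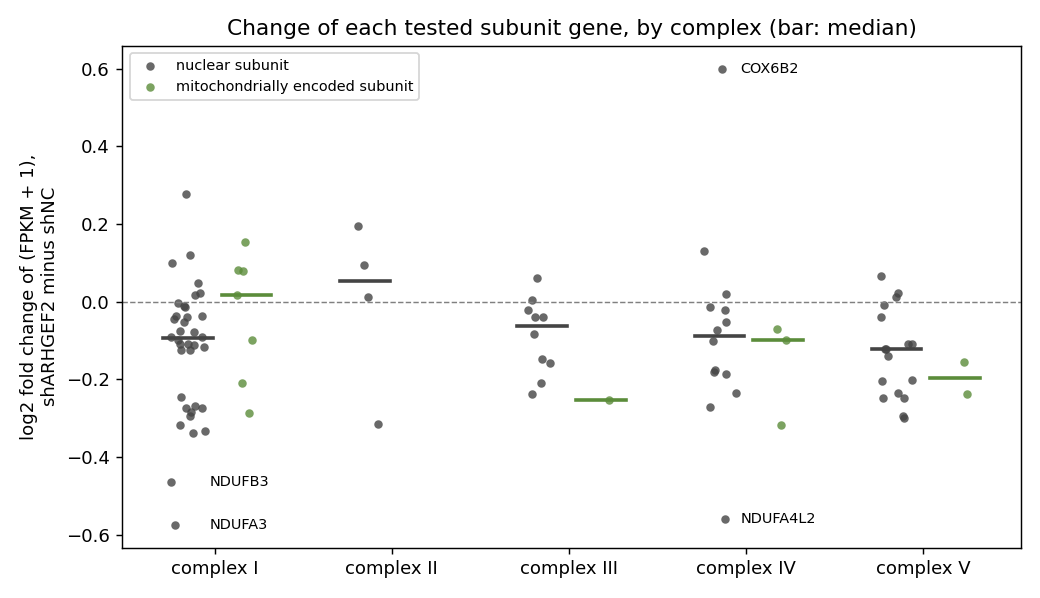
Log2 fold change of FPKM + 1, shARHGEF2 minus shNC (vertical axis), for each tested subunit gene, grouped by complex (horizontal axis); grey points are nuclear subunits, green points mitochondrially encoded subunits, and bars are medians. Most points lie below 0 in complexes I, III, IV and V, while 3 of the 4 complex II genes lie above 0; COX6B2, at 0.60, is the highest point and NDUFA3, at -0.57, the lowest.

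The promoters of 4 nuclear genes are shown because these genes had the 2 smallest p-values among the genes with lower values (NDUFA3 and NDUFB3) or were the 2 genes with higher values and an unadjusted p under 0.05 (COX6B2 and SDHA). Each runs from 250 bases before to 50 bases after the RefSeq start (GRCh38.p14), 5′ to 3′ on the gene's strand. Capitals mark the letters TGCGCA, the core of the site of NRF1, a transcription factor known for driving nuclear respiratory genes. NDUFA3 lies at chr19:54102605-54102904 on the plus strand, NDUFB3 at chr2:201071751-201072050 on the plus strand, COX6B2 at chr19:55354670-55354969 on the minus strand and SDHA at chr5:218070-218369 on the plus strand.
NDUFA3: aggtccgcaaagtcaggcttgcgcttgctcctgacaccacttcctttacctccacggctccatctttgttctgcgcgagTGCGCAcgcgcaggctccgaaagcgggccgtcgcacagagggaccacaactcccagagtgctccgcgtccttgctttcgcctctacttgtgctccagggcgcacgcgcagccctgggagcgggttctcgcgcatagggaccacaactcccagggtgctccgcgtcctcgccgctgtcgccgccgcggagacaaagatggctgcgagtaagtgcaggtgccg
NDUFB3: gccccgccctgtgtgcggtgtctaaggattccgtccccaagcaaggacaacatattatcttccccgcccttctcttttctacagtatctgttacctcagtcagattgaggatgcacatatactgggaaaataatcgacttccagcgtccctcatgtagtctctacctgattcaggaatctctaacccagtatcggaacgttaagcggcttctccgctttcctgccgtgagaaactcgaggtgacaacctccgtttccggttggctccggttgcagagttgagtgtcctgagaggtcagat
COX6B2: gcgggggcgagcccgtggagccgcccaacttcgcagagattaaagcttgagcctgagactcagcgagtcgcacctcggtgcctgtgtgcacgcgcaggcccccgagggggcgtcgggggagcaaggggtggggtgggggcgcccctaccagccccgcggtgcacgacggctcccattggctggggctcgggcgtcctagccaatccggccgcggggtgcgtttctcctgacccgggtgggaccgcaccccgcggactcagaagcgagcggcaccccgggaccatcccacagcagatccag
SDHA: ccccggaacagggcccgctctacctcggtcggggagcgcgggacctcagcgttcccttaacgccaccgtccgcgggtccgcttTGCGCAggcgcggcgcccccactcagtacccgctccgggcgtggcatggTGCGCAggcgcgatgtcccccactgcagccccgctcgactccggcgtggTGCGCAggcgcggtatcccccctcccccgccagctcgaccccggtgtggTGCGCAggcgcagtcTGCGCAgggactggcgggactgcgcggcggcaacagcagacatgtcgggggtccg

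The SDHA promoter held 5 copies of TGCGCA and the NDUFA3 promoter 1, and the NDUFB3 and COX6B2 windows held none. Of the 83 nuclear subunit genes, 64 were matched to a RefSeq promoter, and 20 of these (31.2%) held TGCGCA, which reads the same on both strands, against 2847 of 34796 promoters of the same length (8.18%). The letters CGGAAG, the core of sites for ETS factors, searched on both strands, were in 26 of the 64 (40.6%) and in 19.4% of all promoters; none of the 4 windows above held them. The box CCAAT, searched on both strands, was in 32.8% of the subunit promoters and 34.6% of all promoters, and COX6B2 held 2 copies. The promoters compared with were all distinct RefSeq windows of this length, not matched to the subunit genes in gene type or GC content. A match of letters is a description of these windows only.

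In complex I, 30 of the 36 nuclear subunit genes had a fitted change below 0 (83.3%, against 50.4% of all genes tested). Their median log2 change was -0.09, with a range from -0.57 to 0.28. The 7 nuclear core subunits, which carry the flavin and iron-sulfur centres, had 5 values below 0 (71.4%) and none with an unadjusted p under 0.05. The 29 accessory subunits, which surround the core and stabilise it, had 25 below 0 (86.2%). Of these 29, 6 had an unadjusted p under 0.05, all in the direction of lower values (20.7%, against 5.55% of all genes tested). The difference between core and accessory subunits was not tested, and 7 genes are too few to show a share near 5.55%.

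NDUFA3, an accessory subunit of the membrane arm (chr19:54102728-54109257, plus strand, in GENCODE 29 on GRCh38), was at 20.2, 17.2 and 16.2 FPKM in shNC and at 11.7, 10.9 and 12.3 FPKM in shARHGEF2. The groups did not overlap: every knockdown library was below the lowest control. The control mean was 17.9 ± 2.08 FPKM and the knockdown mean 11.6 ± 0.698 FPKM (SD, n = 3 each), a ratio of 0.651, and the log2 fold change was -0.57 ± 0.11 (SE) with adjusted p = 0.104 in limma. NDUFB3, another accessory subunit of the membrane arm (chr2:201071433-201085750, plus strand), was at 46.0, 42.1 and 38.9 FPKM in shNC and at 27.4, 30.1 and 33.8 FPKM in shARHGEF2. These groups did not overlap either, and the log2 fold change was -0.46 ± 0.11 (SE) with adjusted p = 0.128 in limma. Neither gene passed the threshold.

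NDUFB7, a membrane arm subunit on the side of the intermembrane space, was at 380.0, 302 and 303 FPKM in shNC and at 275, 244 and 266 FPKM in shARHGEF2. Its controls were spread by 1 high library, shNC replicate 1, yet all 3 lay above the knockdown libraries (log2 fold change -0.32 ± 0.11 SE, adjusted p = 0.258 in limma). NDUFB8 was at 71.7, 60.3 and 60.4 FPKM in shNC and at 51.0, 51.1 and 56.8 FPKM in shARHGEF2. The same control library was again the highest, and the groups did not overlap (log2 fold change -0.27 ± 0.10 SE, adjusted p = 0.294 in limma).

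NDUFB11, the nuclear complex I subunit with the highest level, was at 379, 299 and 326 FPKM in shNC and at 325, 299 and 301 FPKM in shARHGEF2, with overlapping groups and adjusted p = 0.690 in limma. NDUFA5, the lowest of the tested nuclear complex I subunits, had means of 1.12 ± 0.315 FPKM (SD, n = 3) and 1.12 ± 0.360 FPKM (SD, n = 3) in shNC and shARHGEF2, so no difference was seen at this depth. NDUFA7 had the highest fitted change in complex I and was at 20.6, 31.0 and 35.6 FPKM in shNC and at 32.2, 36.9 and 34.8 FPKM in shARHGEF2. Only shNC replicate 1 lay well below the others, the groups overlapped, and the log2 fold change was 0.28 ± 0.18 (SE) with adjusted p = 0.560 in limma.

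Complex II had the highest median of the 5 complexes, 0.05 on the log2 scale over its 4 genes, 3 of which had values above 0. Its share below 0 was 25%, against 50.4% of all genes tested. SDHA, the flavoprotein that oxidises succinate, was at 34.9, 33.4 and 37.2 FPKM in shNC and at 40.5, 39.8 and 40.8 FPKM in shARHGEF2. The groups did not overlap, and the knockdown libraries were close together (40.3 ± 0.513 FPKM against 35.2 ± 1.92 FPKM, SD, n = 3 each). The log2 fold change was 0.19 ± 0.08 (SE) with adjusted p = 0.364 in limma. SDHA has pseudogene copies, and how the authors' counting divided reads between them is not given in the sources used here. SDHB, the iron-sulfur subunit, had a log2 fold change of 0.09 ± 0.09 (SE) and SDHD, a membrane anchor and the least abundant of the 4, one of 0.01 ± 0.12 (SE). SDHC, the other anchor, went the other way and was at 22.2, 32.9 and 29.2 FPKM in shNC and at 25.2, 19.8 and 21.6 FPKM in shARHGEF2, with overlapping groups and adjusted p = 0.411 in limma. The difference between complex II and the other complexes was not tested.

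In complex III, 8 of 10 nuclear genes had a fitted change below 0 (80%, against 50.4% of all genes tested). The median log2 change was -0.06, and none had an unadjusted p under 0.05. CYC1, cytochrome c1 and the most abundant of them, was at 213, 160.2 and 192 FPKM in shNC and at 192, 175 and 179.8 FPKM in shARHGEF2; the groups overlapped (log2 fold change -0.04 ± 0.11 SE). UQCRHL is an intronless copy of UQCRH, the hinge protein, and was the least abundant gene of the complex at 4.85 ± 0.875 FPKM in shNC and 5.08 ± 0.565 FPKM in shARHGEF2 (SD, n = 3 each), against 152 ± 5.94 FPKM and 137 ± 10.9 FPKM for UQCRH. Of the 530 stretches of 75 bases in the UQCRH transcript, 104 (19.6%) occurred letter for letter in the UQCRHL transcript, so reads can be shared and both values are uncertain. Neither was called.

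In complex IV, 11 of the 14 tested nuclear genes had a fitted change below 0 (78.6%, against 50.4% of all genes tested), with a median log2 change of -0.09. The one exception by size was COX6B2, the testis form of subunit 6B (chr19:55349306-55354814, minus strand), which was at 0.298, 0.355 and 0.414 FPKM in shNC and at 0.966, 0.917 and 1.299 FPKM in shARHGEF2. Every knockdown library was above every control, the ratio of means was 2.98, and the log2 fold change was 0.60 ± 0.11 (SE) with adjusted p = 0.0993 in limma. These levels correspond to an estimated 4.8 to 5.7 read pairs per shNC library and 13.6 to 20.9 per shARHGEF2 library, so the ratio rests on few reads. The estimate is rough: it takes the median length of the 9 listed transcripts, 690 bases, and the estimated depth, and read counts were not recovered. Its control mean, 0.356 FPKM, was under the 0.5 FPKM asked of a tested gene, so that it was tested only because of its higher knockdown values, and its fold change and p are given as a description. COX6B1, the form found in most tissues, was at 85.9, 71.4 and 74.7 FPKM in shNC and at 71.3, 65.9 and 66.5 FPKM in shARHGEF2. Its knockdown libraries were just below the lowest control (log2 fold change -0.18 ± 0.10 SE, adjusted p = 0.449 in limma), and its level in shARHGEF2 was 67.9 ± 2.94 FPKM beside 1.06 ± 0.208 FPKM for COX6B2 (SD, n = 3 each).

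The other isoform families of complex IV were represented mainly by their widespread forms. COX8A was the most abundant nuclear subunit of the whole chain at 516, 418 and 456 FPKM in shNC and 464, 436 and 473 FPKM in shARHGEF2, while COX8C, a testis form, was listed at 0 in 4 of 6 libraries and at no more than 0.187 FPKM. COX7A2 was at 50.3 ± 6.03 FPKM in shNC and 47.6 ± 1.75 FPKM in shARHGEF2 (SD, n = 3 each), and COX7A1, the heart and muscle form, was listed at 0 in 4 of 6 libraries and at no more than 0.0432 FPKM. COX7A2L, which takes part in supercomplexes, was at 11.7 ± 1.67 FPKM and 12.8 ± 0.584 FPKM (SD, n = 3 each). COX4I1, the main form of subunit 4, was at 37.6 ± 1.36 FPKM and 38.2 ± 1.09 FPKM and COX6A1 at 197 ± 11.4 FPKM and 193 ± 5.16 FPKM (SD, n = 3 each), with log2 fold changes of 0.02 ± 0.08 (SE) and -0.02 ± 0.08 (SE).

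NDUFA4, first assigned to complex I and now counted in complex IV, was at 33.6, 30.6 and 27.9 FPKM in shNC and at 24.9, 27.2 and 28.5 FPKM in shARHGEF2. NDUFA4L2, its counterpart known for induction in low oxygen, was at 6.24, 15.6 and 13.1 FPKM in shNC and at 9.49, 4.15 and 8.80 FPKM in shARHGEF2. Both pairs of groups overlapped. The libraries of NDUFA4L2 were widely spread, so that its log2 fold change of -0.56 had an SE of 0.41 (adjusted p = 0.615 in limma), and its 95% interval ran from -1.56 to 0.44.

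**Figure D2:**
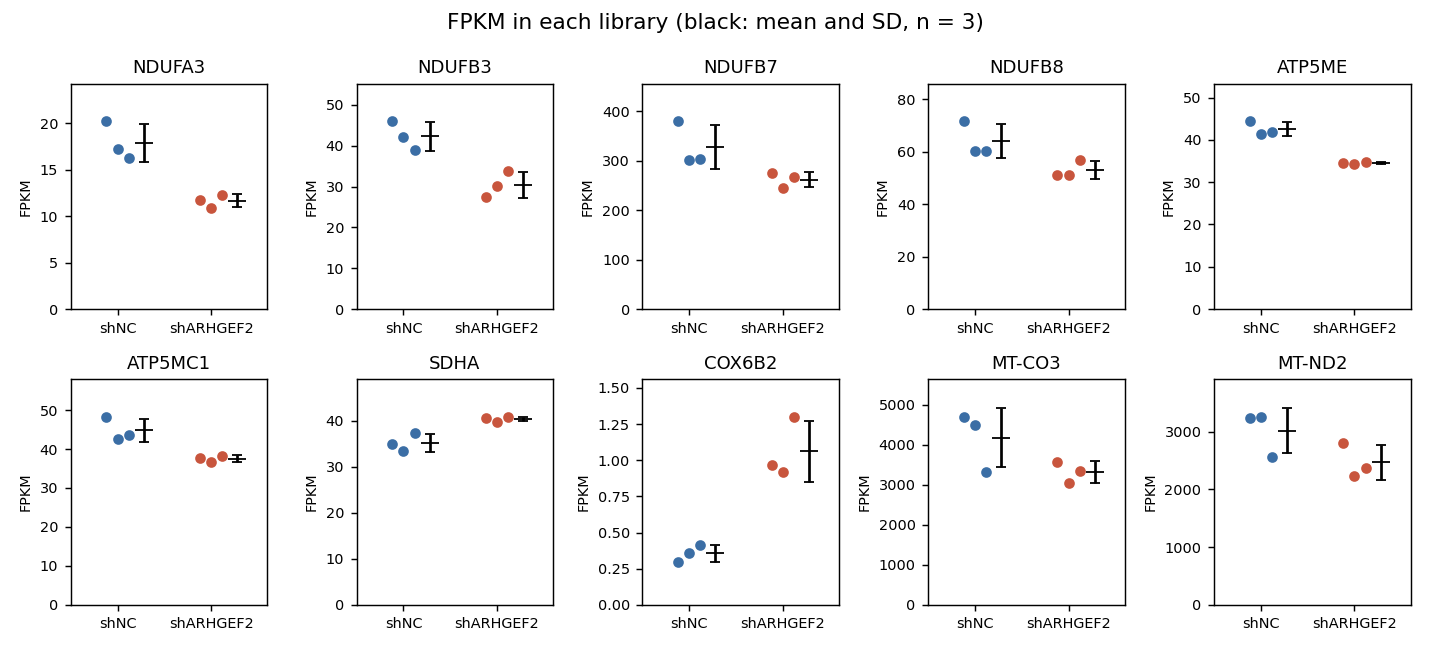
FPKM (vertical axes, from 0) in each shNC library (blue) and shARHGEF2 library (red) for 10 genes, in replicate order from left to right, with the mean and SD in black (n = 3). The knockdown libraries lie below all controls for NDUFA3, NDUFB3, NDUFB7, NDUFB8, ATP5ME and ATP5MC1 and above all controls for SDHA and COX6B2, while the groups overlap for MT-CO3 and MT-ND2.

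Complex V had the lowest median of the complexes, -0.12 on the log2 scale, with 14 of 17 nuclear genes below 0 (82.4%, against 50.4% of all genes tested). Of the 17, 5 had an unadjusted p under 0.05, all in the direction of lower values (29.4%, against 5.55% of all genes tested). ATP5ME, the small e subunit that helps the synthase to form dimers (chr4:672436-674338, minus strand), was at 44.4, 41.5 and 41.9 FPKM in shNC and at 34.6, 34.2 and 34.7 FPKM in shARHGEF2. Both groups were tight and did not overlap, at a ratio of 0.811 and a log2 fold change of -0.29 ± 0.08 (SE) with adjusted p = 0.178 in limma. ATP5MC1, 1 of 3 genes for the c subunit of the rotor, was at 48.2, 42.6 and 43.6 FPKM in shNC and at 37.7, 36.6 and 38.3 FPKM in shARHGEF2, again without overlap (log2 fold change -0.25 ± 0.09 SE, adjusted p = 0.266 in limma). Its sister genes for the same protein, ATP5MC2 and ATP5MC3, had log2 fold changes of 0.02 ± 0.09 (SE) and -0.12 ± 0.10 (SE).

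The catalytic beta subunit ATP5F1B, the most abundant nuclear gene of complex V, was at 382, 379 and 358 FPKM in shNC and at 353, 424 and 397 FPKM in shARHGEF2, with overlapping groups and a log2 fold change of 0.07 ± 0.09 (SE). The least abundant, ATP5MPL, was at 13.5 ± 1.15 FPKM and 12.2 ± 1.70 FPKM (SD, n = 3 each). ATP5IF1, which blocks the synthase from running backwards, was at 39.4, 41.8 and 37.7 FPKM in shNC and at 36.9, 45.2 and 45.6 FPKM in shARHGEF2 (adjusted p = 0.761 in limma). Of the remaining names, the readthrough NDUFC2-KCTD14 shares exons with NDUFC2, so its log2 fold change of -0.57 ± 0.38 (SE) is uncertain, and NDUFA6-DT stood at 0.662 ± 0.059 FPKM and 0.626 ± 0.095 FPKM (SD, n = 3 each). ATP5MF-PTCD1, NDUFB2-AS1, NDUFV2-AS1, COX7A1 and COX8C were the 5 members below the level for testing.

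The 13 MT members were far more abundant per length than the nuclear subunits, and none was called. Their mean levels ran from 1969.9 FPKM for MT-ND3 to 14744 FPKM for MT-ATP8, above the highest nuclear subunit, COX8A, at 461 FPKM. Their median level was 128 times that of the 83 nuclear subunits, whose median was 29.2 FPKM. Of the 13, 9 had a fitted change below 0 (69.2%, against 50.4% of all genes tested). Their median log2 change was -0.10, and the median over the 81 tested nuclear subunits was -0.10 as well. The 2 medians came apart in other fits. With quantile normalization the MT median was 0.00 and the nuclear median -0.11. That method gives each rank the same value in every library, so a gene that keeps its rank is set to no change. The MT genes stand among the highest levels, so this MT median cannot show whether the sets differ. Leaving out shNC replicate 3 gave -0.23 for the MT set and -0.14 for the nuclear set, and leaving out shNC replicate 1 gave -0.04 and -0.06. With shARHGEF2 replicate 1 left out the values were -0.22 and -0.06, and with shARHGEF2 replicate 2 left out -0.05 and -0.11. The difference between the sets was not tested. For every MT member the groups overlapped.

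Some neighbouring MT genes share bases, shown here because reads from the shared stretch fit both genes. MT-ATP8 and MT-ATP6 overlap by 46 bases and MT-ND4L and MT-ND4 by 7, all on the plus strand of the mitochondrial genome, and in each line the capitals mark the overlap with 12 bases on either side. The lines span chrM:8515-8584 and chrM:10748-10778 (GRCh38, GENCODE 29 transcripts).
MT-ATP8 and MT-ATP6: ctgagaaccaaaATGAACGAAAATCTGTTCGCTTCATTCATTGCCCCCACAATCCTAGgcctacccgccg
MT-ND4L and MT-ND4: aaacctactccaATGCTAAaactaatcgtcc

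The overlap made up 22.2% of the 207 bases of MT-ATP8 and 6.75% of the 681 bases of MT-ATP6. A gene as short as MT-ATP8 also has an FPKM that depends on how its length was treated, so its place at the top of the order is uncertain. MT-ATP8, a peripheral subunit of the ATP synthase, was at 18162, 14686 and 13816 FPKM in shNC and at 15717, 13752 and 12334 FPKM in shARHGEF2. MT-ATP6, the subunit that forms the proton channel beside the rotor, was at 8453, 6878 and 6029 FPKM in shNC and at 6589, 5834 and 5555 FPKM in shARHGEF2. In both genes shNC replicate 1 was the highest library, and the log2 fold changes were -0.16 ± 0.13 (SE) and -0.24 ± 0.13 (SE).

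The catalytic core of complex IV is encoded by MT-CO1, MT-CO2 and MT-CO3. MT-CO3 was at 4697, 4497 and 3330.1 FPKM in shNC and at 3578, 3035 and 3353 FPKM in shARHGEF2. The third control lay among the knockdown libraries, and the log2 fold change was -0.32 ± 0.14 (SE), the lowest of the MT members, with adjusted p = 0.360 in limma. MT-CO1 was at 10452, 9851 and 8634 FPKM in shNC and at 9824, 8402 and 8754 FPKM in shARHGEF2 (log2 fold change -0.10 ± 0.10 SE). MT-CO2 was at 9890.5, 8769 and 7165 FPKM in shNC and at 9253, 7233 and 8047 FPKM in shARHGEF2 (log2 fold change -0.07 ± 0.14 SE), so the groups of both overlapped. MT-CYB, the cytochrome b of complex III, was at 3675, 3116 and 2463 FPKM in shNC and at 3091, 2137 and 2521 FPKM in shARHGEF2 (log2 fold change -0.25 ± 0.18 SE).

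The 7 MT genes of complex I, which build its proton-pumping membrane arm, were divided in sign. MT-ND2 was at 3232, 3253 and 2562 FPKM in shNC and at 2804, 2226 and 2376 FPKM in shARHGEF2, with a log2 fold change of -0.29 ± 0.13 (SE) and adjusted p = 0.364 in limma. MT-ND5 was at 2237, 2433 and 2017 FPKM in shNC and at 2805, 2315 and 2326 FPKM in shARHGEF2, with a log2 fold change of 0.15 ± 0.11 (SE), the highest of the MT members. Both pairs of groups overlapped, so neither direction stood clear of the spread. MT-ND1 was at 3861, 3543 and 2801 FPKM in shNC and at 3709, 2842 and 2955 FPKM in shARHGEF2. MT-ND3 was at 2650.2, 1933 and 1782 FPKM in shNC and at 2078, 1627 and 1749 FPKM in shARHGEF2. Their log2 fold changes were -0.10 ± 0.14 (SE) and -0.21 ± 0.16 (SE).

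MT-ND4L and MT-ND4, which share 1 messenger RNA, were at 5376 ± 82.1 FPKM and 6301 ± 279 FPKM in shNC and at 5688 ± 315 FPKM and 6381 ± 395 FPKM in shARHGEF2 (SD, n = 3 each), with log2 fold changes of 0.08 ± 0.08 (SE) and 0.02 ± 0.08 (SE). MT-ND6, the only MT subunit encoded on the other strand, was at 3009, 3304 and 2587 FPKM in shNC and at 3590.2, 2819 and 3016 FPKM in shARHGEF2 (log2 fold change 0.08 ± 0.12 SE). In the order of levels, MT-ND2, MT-CYB, MT-ND6 and MT-ND1 had ranges over the 6 libraries that overlapped one another.

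**Figure D3:**
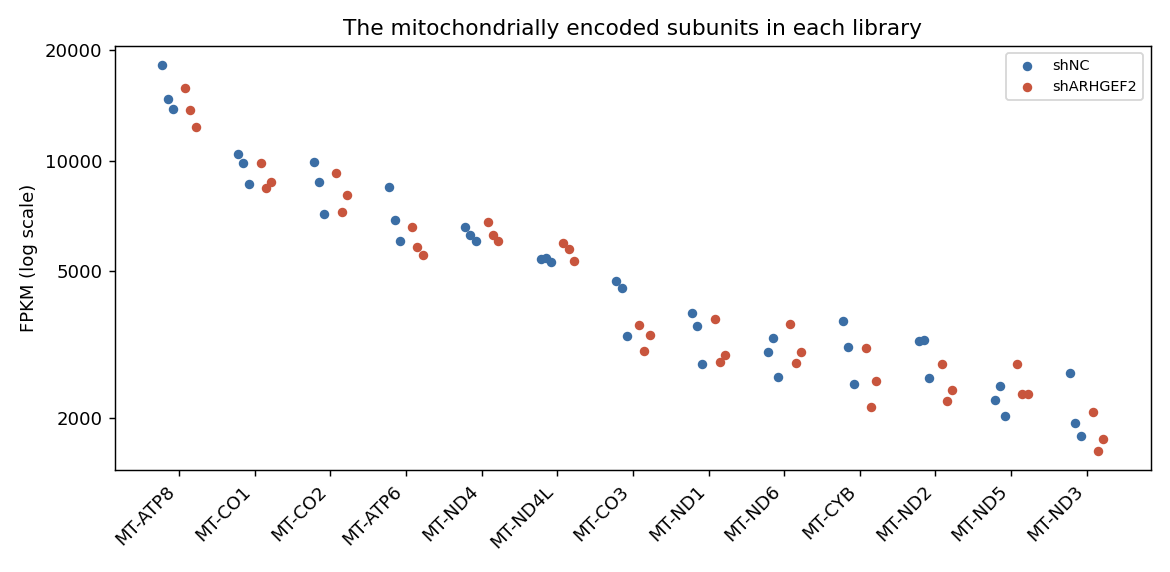
FPKM on a log scale (vertical axis) of the 13 mitochondrially encoded subunits (horizontal axis, ordered by mean level), with the 3 shNC libraries in blue and the 3 shARHGEF2 libraries in red, in replicate order from left to right. The blue and red points overlap for every gene, and the levels run from 1969.9 FPKM on average for MT-ND3 to 14744 FPKM for MT-ATP8.

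Nuclear and MT subunits were then compared library by library. The summed FPKM of the 83 nuclear subunits was 5724, 5029.9 and 4978 in shNC and 4736, 4789.8 and 4966 in shARHGEF2. In the deposited FPKM the knockdown sums were all below the controls, though shARHGEF2 replicate 3 and shNC replicate 3 were nearly equal. The FPKM of all nuclear genes summed to 246923 in shNC replicate 3 and 243358 in shARHGEF2 replicate 3. Relative to these totals the order of this pair turned, so the groups then overlapped. The summed FPKM of the 13 MT subunits was 82309, 73983 and 64506 in shNC and 75819, 64266 and 64370 in shARHGEF2, and these overlapped. MT subunits made up 93.5%, 93.6% and 92.8% of the subunit FPKM in shNC and 94.1%, 93.1% and 92.8% in shARHGEF2, so the mean shares of 93.3 ± 0.427% and 93.3 ± 0.685% (SD, n = 3 each) differed by far less than the spread between libraries. All 102 members together took 21.3 to 25.1% of the FPKM of the table in shNC and 21.5 to 24.1% in shARHGEF2.

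The median nuclear subunit, relative to its own mean over the 6 libraries, stood at 0.16, 0.05 and -0.02 on the log2 scale in shNC and at -0.11, -0.06 and 0.00 in shARHGEF2. The median MT subunit stood at 0.25, 0.08 and -0.13 in shNC and at 0.10, -0.15 and -0.14 in shARHGEF2. Replicate 1 of shNC was the highest library on both measures, replicate 3 of each group lay close together in the nuclear set, and the groups overlapped in both sets. In complex II the order was different, with shNC replicate 1 the lowest library at -0.11 and shARHGEF2 replicate 3 the highest at 0.11.

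The counts moved with single libraries and with the scaling. With each library scaled to the median ratio, 5 members had lower values at an unadjusted p under 0.05 (5.15%), against 5.77% of all genes. Without shNC replicate 1, 69 of 97 members had a fitted change below 0 (71.1%, against 55.6% of all genes), and the members with lower values at an unadjusted p under 0.05 went from 14 to 5, against 4.03% of all genes. Without shARHGEF2 replicate 2 there were 5 such members as well, against 3.92% of all genes, and without shNC replicate 3 there were 24, against 6.62%. The number called stayed at 0 in each of these fits. Members whose groups did not overlap were 19 of 97 (19.6%, against 20.5% of all genes); leaving out 1 library at a time gave 21.6 to 43.3% of members, against 27.7 to 33.9% of all genes.

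**Figure D4:**
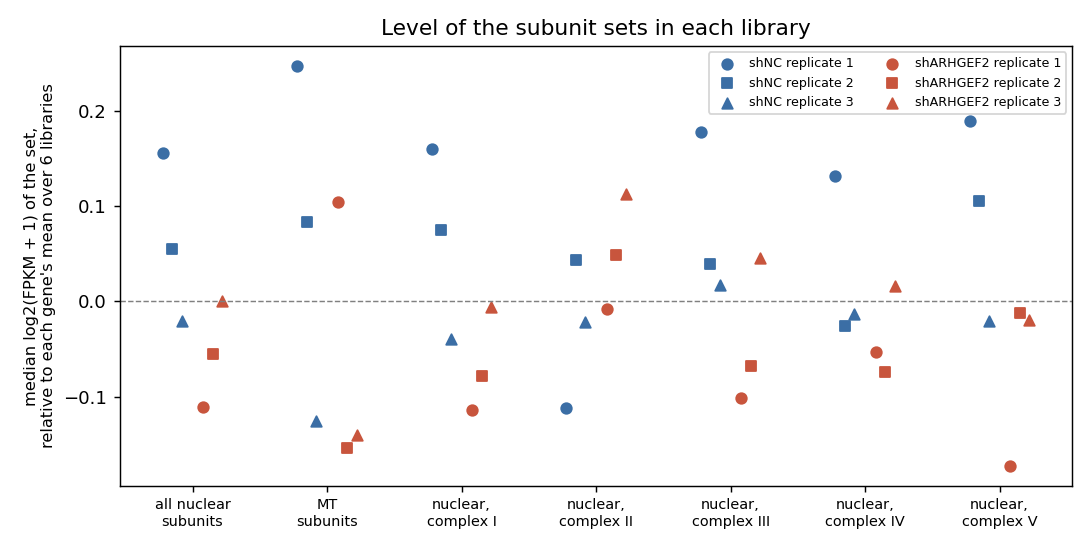
Median log2(FPKM + 1) of each subunit set relative to each gene's mean over the 6 libraries (vertical axis), for all nuclear subunits, the MT subunits and the nuclear subunits of each complex (horizontal axis), with shNC in blue, shARHGEF2 in red and the marker giving the replicate. Replicate 1 of shNC is the highest in every set but complex II, where it is the lowest, and the groups overlap for all nuclear subunits and for the MT subunits.

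Among the nuclear subunits, the size of the change varied with transcript length, a property the choice of genes did not use. Length was the median over all transcripts listed for a gene, retained introns and other noncoding forms among them. It need not be the length of the main messenger RNA. UQCRC2, with 9 listed transcripts of such mixed types, stood at 586 bases. By this measure the median was 662.5 bases for the nuclear subunits against 1066 bases over all genes tested. Of the 27 tested subunits with a length under 600 bases by this measure, 25 (92.6%) had a change below 0. Their median log2 change was -0.18, and 8 were at an unadjusted p under 0.05 in that direction. Of the 43 between 600 and 1000 bases, 33 (76.7%) were below 0, with a median of -0.09, and of the 11 of 1000 bases or more, 6 (54.5%), with a median of -0.02. Over all genes tested in the same length classes, 55.7%, 51.7% and 48.2% were below 0, with medians of -0.03, -0.01 and 0.01. Lower values at an unadjusted p under 0.05 were found in 29.6%, 9.3% and 0% of the subunits in the 3 classes, against 9.82%, 5.38% and 4.65% of all genes. Spearman's rho between change and length was 0.417 across the 81 tested nuclear subunits and 0.0717 across 12231 genes, as a description across genes of the same libraries. With a trend on transcript length taken out of each library, an alternative chosen after seeing the data, 73 of the 97 members were below 0, against 52.2% of all genes, and 8 (8.25%) had lower values at an unadjusted p under 0.05, against 6.12% of all genes.

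**Figure D5:**
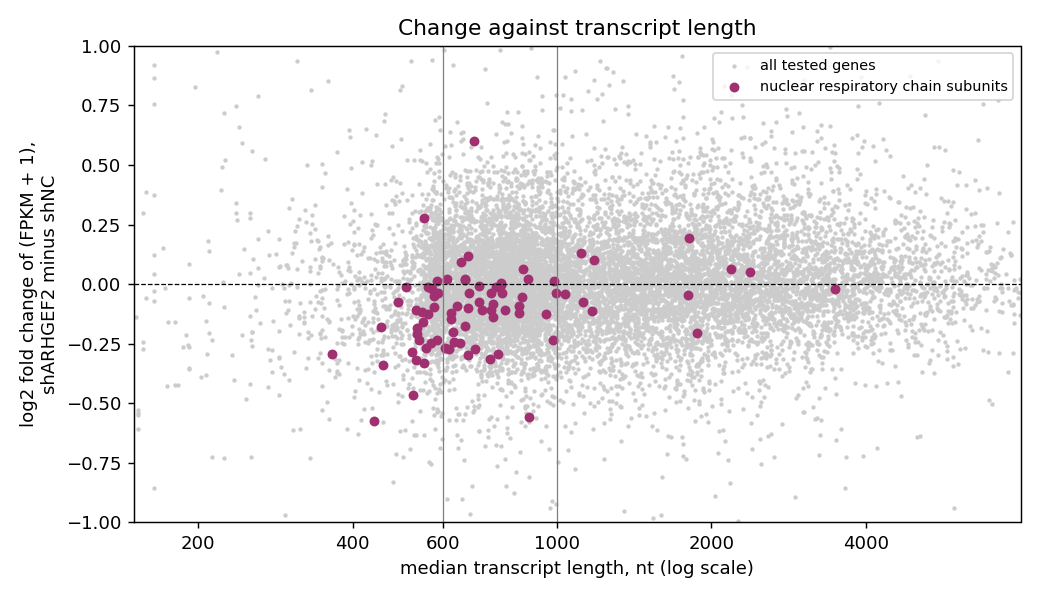
Log2 fold change of FPKM + 1, shARHGEF2 minus shNC (vertical axis), against the median length of a gene's transcripts in bases on a log scale (horizontal axis), for all tested genes in grey and the nuclear respiratory chain subunits in purple; lines mark 0, 600 bases and 1000 bases, and genes beyond the axes are not drawn. The purple points under 600 bases lie mostly below 0 (25 of 27), those of 1000 bases or more on both sides of it (6 of 11 below).

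Other genes that build or feed the chain were counted beside the subunits. Of 54 tested assembly factors, which insert cofactors and join subunits, 0 were called in limma, with a median log2 change of -0.12. A change below 0 was seen in 44 (81.5%, against 50.4% of all genes tested). Lower values at an unadjusted p under 0.05 were seen in 5 (9.26%, against 5.55% of all genes tested). NDUFAF8, an assembly factor of complex I, was at 39.2, 37.1 and 30.9 FPKM in shNC and at 25.2, 23.6 and 26.1 FPKM in shARHGEF2, without overlap (log2 fold change -0.50 ± 0.11 SE, adjusted p = 0.1203 in limma). COA4, an assembly factor of complex IV, was at 36.2 ± 1.01 FPKM and 30.4 ± 0.701 FPKM (SD, n = 3 each), also without overlap (adjusted p = 0.249 in limma). In the other direction SDHAF1, which helps to build complex II, was at 25.6 ± 4.75 FPKM and 30.8 ± 0.679 FPKM and ECSIT at 28.5 ± 6.73 FPKM and 36.1 ± 9.15 FPKM (SD, n = 3 each).

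Of 30 tested factors that copy, transcribe or stabilise the mitochondrial genome and its RNAs, or that switch on nuclear respiratory genes, 0 were called in limma. A change below 0 was seen in 21 (70%, against 50.4% of all genes tested), with a median log2 change of -0.09. POLG, the mitochondrial DNA polymerase, was at 7.43, 7.02 and 10.7 FPKM in shNC and at 11.7, 10.1 and 10.96 FPKM in shARHGEF2; the groups overlapped (log2 fold change 0.36 ± 0.15 SE, adjusted p = 0.349 in limma). FASTKD5, an RNA-processing factor, had a log2 fold change of 0.16 ± 0.14 (SE), and MTERF3 and SLIRP, a regulator of transcription and an RNA-stabilising protein of the organelle, had -0.36 ± 0.18 (SE) and -0.25 ± 0.13 (SE).

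The 25 tested mobile carriers and citrate cycle enzymes were nearly balanced, with 11 below 0 (44%, against 50.4% of all genes tested), a median log2 change of 0.00 and 0 called in limma. The list counts NDUFAB1, the acyl carrier protein, which is also a complex I subunit but has a name that the choice of members did not match; it was at 38.9, 37.5 and 36.5 FPKM in shNC and at 33.5, 37.3 and 40.4 FPKM in shARHGEF2, with overlapping groups. Also in it, PDSS1, which makes the side chain of ubiquinone, was at 1.86 ± 0.573 FPKM and 1.21 ± 0.106 FPKM and FH, fumarase, at 31.7 ± 3.24 FPKM and 27.3 ± 2.57 FPKM (SD, n = 3 each), while COQ8A and IDH3B had log2 fold changes of 0.30 ± 0.16 (SE) and 0.12 ± 0.09 (SE). Of 22 tested genes taken as a measure of mitochondrial mass (import pores, prohibitins and fusion factors among them), 17 were below 0 (77.3%, against 50.4% of all genes tested). Their median log2 change was -0.09, and 0 were called in limma. TOMM22 and PHB had log2 fold changes of -0.22 ± 0.11 (SE) and -0.15 ± 0.10 (SE), and MFN1 and CHCHD3 of 0.12 ± 0.19 (SE) and 0.07 ± 0.12 (SE).

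Lower values were not particular to the respiratory chain. Of 78 mitochondrial ribosomal protein genes tested, 63 (80.8%) had a change below 0, with a median log2 change of -0.11. Of 79 cytosolic ribosomal protein genes, 75 (94.9%) did, with a median of -0.17. Over all genes tested the share was 50.4%. Both sets lay on the same side as the nuclear subunits (79.0% below 0), and 0 of either set were called in limma, although 11 and 18 of them (14.1% and 22.8%, against 5.55% of all genes) had lower values at an unadjusted p under 0.05. Differences between these sets and the respiratory chain genes were not tested.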

How the data were processed

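Poly(A)-selected, strand-specific RNA with unique molecular identifiers was sequenced as read pairs in 6 libraries, 3 shNC and 3 shARHGEF2, grouped by their titles. The authors deposited FPKM per gene; the submitters' processing notes name cutadapt 1.9, HISAT2 2.0.4, UMI-tools, StringTie 1.3.4d, DESeq2, edgeR and hg19. How each was used, and how reads of copied or overlapping genes were divided, is not given in the sources used here. Fold changes, p-values and calls of the authors stand in the same table and were not used. The table has no coordinates; gene positions, transcript lengths and GC content came from GENCODE 29 (GRCh38), where 26690 genes had a length, and promoters from RefSeq (GRCh38.p14).

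From the deposited FPKM, log2(FPKM + 1) of the 12291 genes averaging 0.5 FPKM or more was fitted with limma 3.58.1 (R 4.3.3, trended and robust variances, two-sided), with Benjamini-Hochberg adjustment over all genes tested and a threshold of 0.05. The fit was tested on simulated data. Low FPKM values fell in steps, but only 39.87 to 41.35% of them lay within 0.1 of a whole read, so counts were not recovered and no count test was run. Named genes were every MT member, the isoform families, the highest and lowest tested member of each complex, up to 6 members with the smallest p in each direction, and the 2 with the smallest p in each direction of each further list. Genes singled out beyond these (such as SDHC, UQCRH, ATP5MC2 and ATP5MC3) were chosen after their values were seen. The members and lists were chosen with earlier results of these data known. Alternatives were a replicate block, other pseudocounts, filters, scalings and variance settings, leaving out each library, and, added after seeing the data, removal of a trend (loess, span 0.3) on GC content or transcript length.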

Additional observations from a re-analysis of the deposited data

How the results depend on the processing

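Respiratory chain genes called were 0 in the fit reported and in all 16 alternatives, and the median log2 change of nuclear and of MT members and the MT share moved by less than the spread between libraries in each. The members below 0 ranged from 66 to 79. Genes called over the whole table were 34, and 0 with the replicate block, 1 without a filter beyond a value above 0, 54 with at least 1 FPKM in 3 libraries, 19 with quantile normalization, 7 with scaling to the median ratio, 7 without trended or robust variances, 9 with the length trend removed and 6 to 102 when 1 library was left out. Same-numbered libraries had residual correlations of 0.18, 0.16 and -0.10, so the numbers were not taken as pairs. Members at an unadjusted p under 0.05 went from 16 to 6 (median ratio), 9 (no trended or robust variances) and 9 (length trend removed), and to 6 to 27 without 1 library. Those with lower values went from 14 (14.4%, against 5.55% of all genes) to 9 of 102 without a filter (3.16% of all genes), and of 97 to 9 scaled to nuclear FPKM (4.7%), 5 with the median ratio (5.77%), 8 without trended or robust variances (5.43%), 8 with the length trend removed (6.12%) and 5 to 24 without 1 library (3.92 to 6.62%). Members whose groups did not overlap numbered 19, and 21 to 42 without 1 library, where the share of all genes rose from 20.5% to between 27.7 and 33.9%. Assembly factors called were 0, and 0 to 1 without 1 library (1, NDUFAF8, without shNC replicate 3). The cause of these differences was not tested. Leaving out a library also lowered the number of libraries in a fit, and dropping the filter raised the number of genes. Of 52 single genes followed, 42 kept their sign throughout. Signs turned for COX6A1 with quantile normalization (0.025), COX8A with scaling to nuclear FPKM (0.0017) and with the length trend removed (0.012) and SDHD with quantile normalization (-0.013). Without 1 library the signs also turned for COX6A1 (-0.055 to 0.025), COX8A (-0.083 to 0.068), SDHD (-0.056 to 0.093), COX4I1 (-0.0052 to 0.045), MT-CO2 (-0.20 to 0.038), MT-ND4 (-0.031 to 0.056), MT-ND6 (-0.018 to 0.16), NDUFA6-DT (-0.074 to 0.011), UQCRHL (-0.049 to 0.17) and MFN1 (-0.028 to 0.29). At a rough estimate of 4.8 to 5.7 read pairs per control library, depth limits COX6B2.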

Other observations

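The mitochondrial genome also encodes 2 ribosomal RNAs and 22 transfer RNAs, which are not subunits of the chain and lie between its genes on the same primary transcripts. All 24 were tested, 18 had lower and 6 higher fitted values in shARHGEF2, and at an unadjusted p under 0.05 there were 11 with lower values (45.8%, against 5.55% of all genes tested) and 1 with higher values (4.17%, against 8.1%). The 1 was MT-TK, the transfer RNA for lysine, at 16.5, 19.1 and 25.5 FPKM in shNC and at 28.7, 26.1 and 25.0 FPKM in shARHGEF2, with overlapping groups and a log2 fold change of 0.39 ± 0.15 (SE) with adjusted p = 0.317 in limma. These RNAs carry short or no poly(A) tails, and the libraries were selected on poly(A), so their values depend on how they were captured, which was not tested. MT-TG, the transfer RNA for glycine, was the 1 called in limma: it was at 54.5, 57.2 and 42.0 FPKM in shNC and at 28.3, 27.6 and 29.9 FPKM in shARHGEF2, a log2 fold change of -0.81 ± 0.12 (SE) with adjusted p = 0.0487, close to the threshold. Over 16 alternatives its log2 change ran from -0.94 to -0.68 and its adjusted p from 0.0166 to 0.345, and the call was lost in 12 of them, including all leave-one-out fits but the one without shNC replicate 3. MT-TT, the transfer RNA for threonine, was at 62.8, 51.6 and 46.5 FPKM in shNC and at 37.5, 33.8 and 35.0 FPKM in shARHGEF2, without overlap and with adjusted p = 0.114 in limma.

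The small ribosomal RNA, MT-RNR1, was at 1152, 1072 and 784 FPKM in shNC and at 694, 617 and 656 FPKM in shARHGEF2. The groups did not overlap, and the log2 fold change was -0.59 ± 0.14 (SE) with adjusted p = 0.131 in limma. The large one, MT-RNR2, was at 3996, 4301 and 3418 FPKM in shNC and at 3007, 3568 and 3096 FPKM in shARHGEF2, with a log2 fold change of -0.27 ± 0.11 (SE), adjusted p = 0.333 in limma and overlapping groups. These genes were looked at after the subunit genes of the same genome had been seen, and those named were chosen after their values were seen.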
